A study of Mus musculus with 2 samples.

Results

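The miR-181 family of microRNAs was described in the liver of mouse embryos. Its 6 genes, Mir181a-1, Mir181a-2, Mir181b-1, Mir181b-2, Mir181c and Mir181d, were chosen by name, and all 6 were found among the 1973 genes counted. Small RNA was sequenced from 2 libraries, named here as the labels number them, replicate 2 and replicate 1. Each came from its own biosample of healthy B6NCrl embryos at day 13.5, with male and female embryos pooled and the RNA selected for sizes below 30. The labels give 1 group and no treatment, so the comparisons are between loci, between gene copies and between the libraries.

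MicroRNAs are cut from hairpin precursors, and bases 2 to 8 of a mature microRNA, its seed, guide it to target messages. Each hairpin can give a mature form from its 5p arm and from its 3p arm. The miR-181 family is known in mouse for its roles in lymphocytes: miR-181a raises the sensitivity of thymocytes to antigen, and the family is also abundant in brain. At this stage the fetal liver is the main blood-forming organ of the embryo and holds hepatoblasts, endothelium and mesenchyme beside blood precursors.

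The family lies at 3 loci, each with 2 hairpins, and coordinates are those of GENCODE M21 on mm10. Mir181a-1 (ENSMUSG00000065565.1, chr1:137966455-137966541) and Mir181b-1 (ENSMUSG00000065458.1, chr1:137966639-137966718) stand on the plus strand 97 bases apart, in an annotated exon of the long non-coding RNA gene A430106G13Rik. Both also lie in introns of Gm4258 on the same strand and of Gm26936 on the opposite strand. Mir181a-2 (ENSMUSG00000065423.1, chr2:38852735-38852810) and Mir181b-2 (ENSMUSG00000065578.1, chr2:38853830-38853918) stand 1019 bases apart on the plus strand, inside an intron of Nr6a1, a nuclear receptor gene that runs on the opposite strand. Mir181b-2 also overlaps an exon of Gm44144, on the opposite strand too. Mir181c (ENSMUSG00000065483.1, chr8:84178873-84178961) and Mir181d (ENSMUSG00000076338.1, chr8:84178716-84178787) stand 85 bases apart on the minus strand, inside an annotated intron of Nanos3, a germ cell gene on the same strand. The M21 entry of Mir181c carries a later version number than the one counted.

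The 5p sequences show which genes can be told apart by their reads, and which share a product. They are written 5′ to 3′ from RefSeq (GRCm38.p6) with the seed in capitals. All 6 genes carry the seed ACAUUCA on this arm, and no gene outside the family carried it on a mature arm in the RefSeq table.
miR-181a-5p, of Mir181a-1 and Mir181a-2: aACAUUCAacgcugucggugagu
miR-181b-5p, of Mir181b-1 and Mir181b-2: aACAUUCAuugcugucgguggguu
miR-181c-5p, of Mir181c: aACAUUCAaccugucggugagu
miR-181d-5p, of Mir181d: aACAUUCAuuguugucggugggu

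By sequence the 5p forms fall into pairs, a with c and b with d. miR-181c-5p lacks base 11 of miR-181a-5p and matches it at its other 22 bases. miR-181d-5p differs from miR-181b-5p by 1 substitution, C12U, and by its end, which is 1 base shorter (positions are counted from 1 at the 5′ end of the form named first). Between the pairs, miR-181b-5p differs from miR-181a-5p by A9U, C10U and A21G, and is 1 base longer.

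The 3p sequences, in contrast, differ between the copies, and they are shown because they carry the bases that tell copies apart. Capitals again mark bases 2 to 8.
miR-181a-1-3p: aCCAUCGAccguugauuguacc
miR-181a-2-3p: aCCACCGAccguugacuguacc
miR-181b-1-3p: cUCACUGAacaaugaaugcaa
miR-181b-2-3p: cUCACUGAucaaugaaugcaaa
miR-181c-3p: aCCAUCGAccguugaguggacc
miR-181d-3p: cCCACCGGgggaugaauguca
miR-181a-2-3p differs from miR-181a-1-3p by U5C and U16C, so its bases 2 to 8 differ too. miR-181b-2-3p differs from miR-181b-1-3p by A9U and 1 further base at the end. miR-181a-1-3p and miR-181c-3p, from different chromosomes, share the seed CCAUCGA.

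The hairpins of the copies were then searched for words of 20 bases that occur in the RefSeq sequence of a microRNA gene at another locus, and such bases are in capitals here.
Mir181a-1 (chr1:137966455-137966541, plus strand): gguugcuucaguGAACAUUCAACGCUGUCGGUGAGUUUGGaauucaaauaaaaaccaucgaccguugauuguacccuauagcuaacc
Mir181a-2 (chr2:38852735-38852810, plus strand): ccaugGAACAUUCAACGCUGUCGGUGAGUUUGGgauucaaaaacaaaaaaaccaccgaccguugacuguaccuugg
Mir181b-1 (chr1:137966639-137966718, plus strand): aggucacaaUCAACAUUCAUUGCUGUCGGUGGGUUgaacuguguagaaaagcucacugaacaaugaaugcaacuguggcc
Mir181b-2 (chr2:38853830-38853918, plus strand): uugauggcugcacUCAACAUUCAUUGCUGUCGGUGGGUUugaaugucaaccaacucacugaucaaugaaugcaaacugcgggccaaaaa

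Each capital run covers the whole 5p form and no base of the 3p form. In the Mir181a copies the identical run is 28 bases long and the first difference from the 5p start is A28G. In the Mir181b copies the run is 26 bases long and the first difference is G25U, directly after the last base of miR-181b-5p. The Mir181d hairpin held no shared word, and neither mature form of Mir181c was found in the sequence of another gene. RefSeq matched the mature forms of all 6 genes and the hairpins of 5, without that of Mir181c. The deposited tables list reads that map to several places, 32.0% of all reads in replicate 2 and 36.7% in replicate 1, in a row of their own. How a read of a shared 5p form was treated is not given in the sources used here. Of 37 genes with every mature arm that RefSeq lists shared, 8 still had a count in each library, Mirlet7a-1 at a mean of 156 CPM. Counts of the 4 copied genes are therefore uncertain, and their sum cannot be taken as the level of miR-181a-5p or miR-181b-5p. The tables give 1 count for a hairpin, so the arms behind the counts cannot be told apart.

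**Figure D1:**
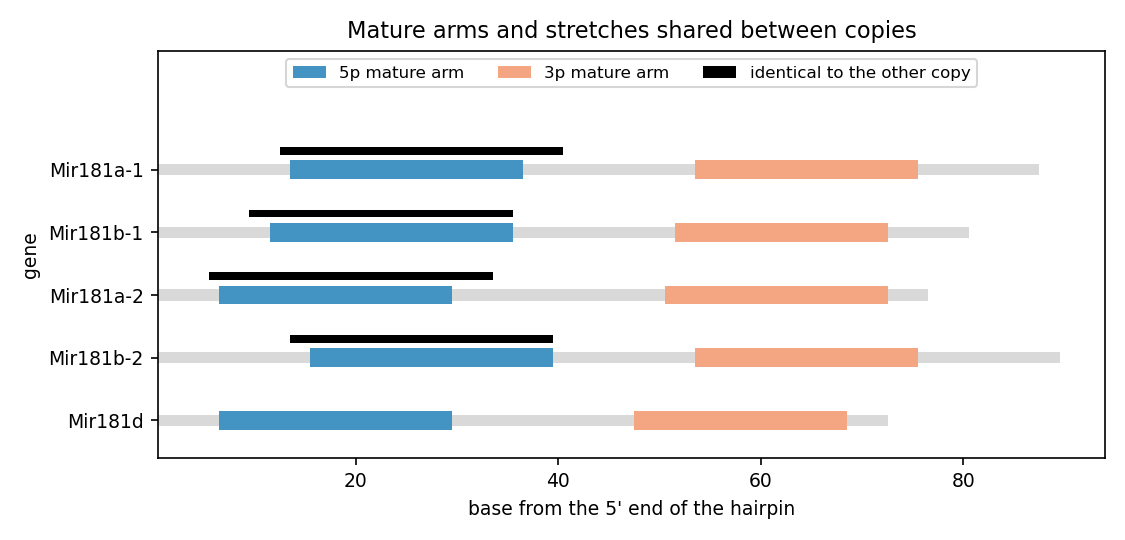
Hairpins of 5 miR-181 genes drawn to scale in bases from the 5′ end, with the 5p arm in blue, the 3p arm in orange and, as a black bar, the stretch of shared 20-base words. The bars of 28 bases in the Mir181a copies and 26 bases in the Mir181b copies cover the 5p arm and end before the 3p arm; Mir181d has none.

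By reads on the gene's own strand, the chromosome 8 locus led the family in both libraries. Levels are in CPM, a gene's counts times 1000000 over the total on microRNA genes, which was 4286742 in replicate 2 and 2607403 in replicate 1. A small RNA read can span its whole molecule, so CPM was not divided by length. The whole family held 17082 counts in replicate 2 and 9169 in replicate 1, which is 0.398% of counts in replicate 2 and 0.352% in replicate 1, a mean of 0.375% ± 0.0331 (SD, n = 2). A count of 0 would allow up to 0.700 CPM in replicate 2, against 1.15 CPM in replicate 1, counting error only, and each of the 6 genes had at least 10 counts in each library, the limit for a gene to be called detected.

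Mir181c, whose forms are unique in the table, was the most abundant member. It had 7769 counts or 1812 CPM in replicate 2 and 4625 counts or 1774 CPM in replicate 1, a mean of 1793 ± 27.2 CPM (SD, n = 2). Its partner Mir181d had 5092 counts or 1188 CPM in replicate 2 and 2195 counts or 842 CPM in replicate 1, a mean of 1015 ± 245 CPM. Mir181c lay above Mir181d in both libraries, and these were places 79 and 99 by mean CPM among all genes counted.

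Mir181a-1 was the highest of the genes with a copy. It had 2297 counts or 536 CPM in replicate 2 and 1741 counts or 668 CPM in replicate 1, a mean of 602 ± 93.3 CPM (SD, n = 2). Mir181b-1, its neighbour, was the lowest member of the family, with 59 counts or 13.8 CPM in replicate 2 and 14 counts or 5.37 CPM in replicate 1. These neighbours, 97 bases apart, thus gave 38.9 times as many counts for Mir181a-1 as for Mir181b-1 in replicate 2 and 124 times as many in replicate 1. With 14 counts in replicate 1, the 95% Poisson interval of Mir181b-1 there reached from 2.94 to 9.01 CPM.

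At the chromosome 2 locus the order was the other way round, with the b gene above the a gene. Mir181b-2 had 1638 counts or 382 CPM in replicate 2 and 446 counts or 171 CPM in replicate 1, a mean of 277 ± 149 CPM (SD, n = 2). Mir181a-2 had 227 counts or 53.0 CPM in replicate 2 and 148 counts or 56.8 CPM in replicate 1, a mean of 54.9 ± 2.69 CPM. Mir181c, Mir181d, Mir181a-1, Mir181b-2, Mir181a-2 and Mir181b-1 followed each other in this order in both libraries. The ranges over the libraries did not overlap between any neighbours in that order, though with 2 libraries no exact test over samples can give a two-sided p below 0.5.

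**Figure D2:**
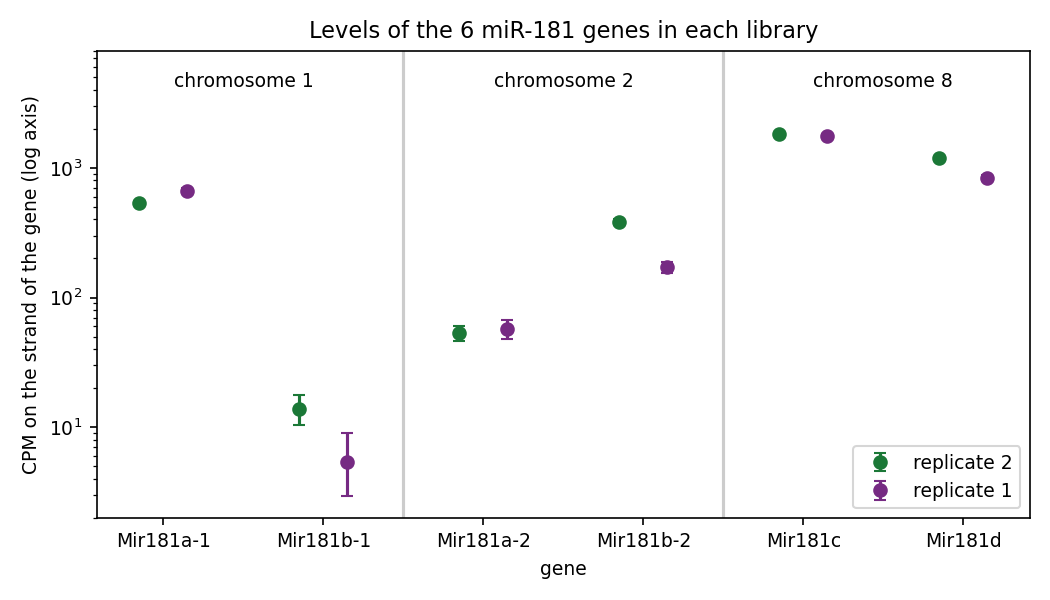
CPM on the strand of the gene, on a log axis, of the 6 miR-181 genes by locus in replicate 2 (green) and replicate 1 (purple), with bars for the 95% Poisson interval of the count. Mir181c is highest at 1812 CPM in replicate 2 and 1774 CPM in replicate 1, and Mir181b-1 lowest at 13.8 CPM in replicate 2 and 5.37 CPM in replicate 1.

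Summed over its 2 genes, the chromosome 8 locus held 3000 CPM in replicate 2 and 2616 CPM in replicate 1. That was 75.3% of the family's counts in replicate 2 and 74.4% in replicate 1. The chromosome 1 locus held 550 CPM in replicate 2 and 673 CPM in replicate 1. The chromosome 2 locus held 435 CPM in replicate 2 and 228 CPM in replicate 1. Chromosome 8 thus lay above chromosome 1 by a log2 ratio of 2.20 ± 0.35 and above chromosome 2 by 3.15 ± 0.52 (SD, n = 2). Chromosome 1 lay above chromosome 2 by 0.34 in replicate 2 and 1.56 in replicate 1, the same direction with a large spread. The chromosome 8 forms are unique in the table while the 5p forms of the other loci are shared, and what share of the shared forms was counted was not tested, so this order is one of listed counts.

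The family was set beside other genes with and without shared arms. Of the 1973 genes counted, 916 matched a gene with mature forms in the RefSeq table. In 51 of these, as in the 4 copied miR-181 genes, some but not every mature arm was held by a gene at another locus, and 35 of them (68.6%) were detected. No arm was shared in 828 genes, Mir181c and Mir181d among them, and 289 (34.9%) were detected. Every arm was shared in 37 genes, of which 5 were detected. Among detected genes the median was 52.6 CPM with 1 of 2 arms shared, 156 CPM over the 5 with every arm shared and 189 CPM with no arm shared. Mir181a-1 and Mir181b-2 took places 6 and 7 of the 35 genes with 1 arm shared, Mir181a-2 place 16 and Mir181b-1 place 32. These medians describe the genes that passed the detection limit and were not tested. The classes rest on the arms that RefSeq lists. Mir199b and Mir3074-1, with every arm shared, and Mirlet7a-2, with no arm shared, have 1 listed arm each.

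**Figure D3:**
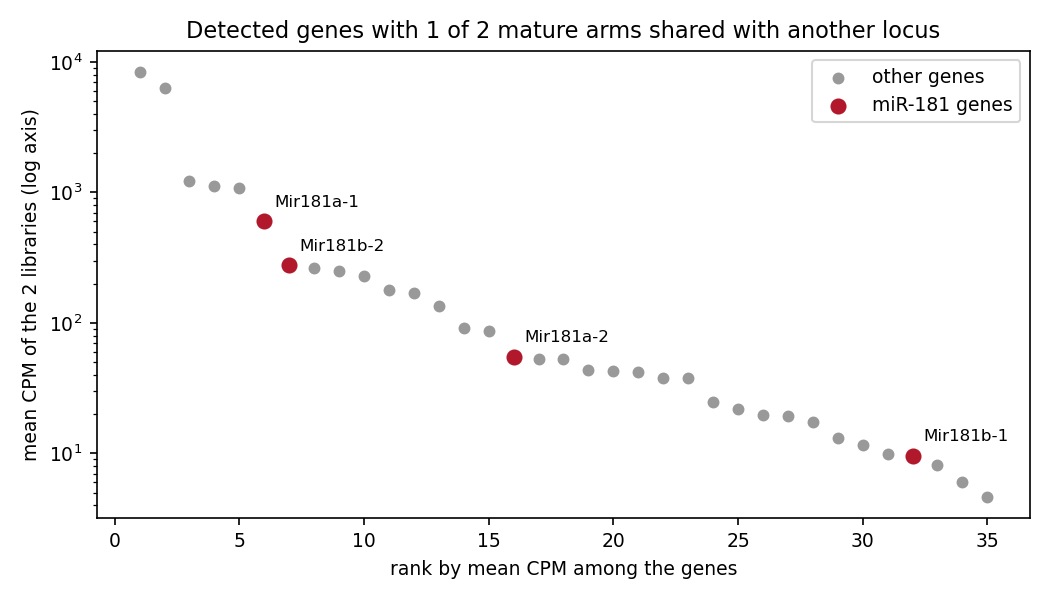
Mean CPM of the 2 libraries, on a log axis, of the 35 detected genes with 1 of 2 mature arms held by a gene at another locus, in order of level. The 4 copied miR-181 genes (red) stand at places 6, 7, 16 and 32, from 602 CPM down to 9.57 CPM.

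Of each pair of copies, 1 held nearly all counts, from chromosome 1 for miR-181a and from chromosome 2 for miR-181b. Mir181a-1 held 91.0% of the counts of the Mir181a copies in replicate 2 (exact 95% binomial interval 89.8% to 92.1%) and 92.2% in replicate 1 (90.9% to 93.3%). Mir181b-2 held 96.5% of the counts of the Mir181b copies in replicate 2 (95.5% to 97.3%) and 97.0% in replicate 1 (94.9% to 98.3%). The intervals of the libraries overlap for each pair. Such overlap is not a test, and a change in the split between copies was not tested. A read of exactly the shared 5p form matches both copies, so these shares describe the listed counts only.

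Other microRNA copies with names that differ in their last number were split in varied ways. Of 43 such families, 17 had a copy with at least 100 counts in total, and in 5 of the 17 the highest copy held over 90% in both libraries. Mir92-1 held 97.0% of the counts of its family in replicate 2 and 96.9% in replicate 1. Mir16-1 held 84.2% in replicate 2 and 86.4% in replicate 1. Mir194-2 held 99.2% in replicate 2 and 99.3% in replicate 1. Mir125b-2 and Mirlet7a-1 lay near equal shares, at 52.1% and 52.9% in replicate 2 and 50.9% and 47.4% in replicate 1. Mir7-1 held 91.3% in replicate 2 and 94.3% in replicate 1. Uneven splits like those of the miR-181 copies were therefore also found in other families.

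The split between partners of 1 locus did change between the libraries, at each of the 3 loci and in favour of the b or d gene in replicate 2. Mir181a-1 held 97.5% of the counts of the chromosome 1 locus in replicate 2 (exact 95% interval 96.8% to 98.1%) and 99.2% in replicate 1 (98.7% to 99.6%). Mir181a-2 held 12.2% of the chromosome 2 locus in replicate 2 (10.7% to 13.7%) and 24.9% in replicate 1 (21.5% to 28.6%). Mir181c held 60.4% of the chromosome 8 locus in replicate 2 (59.6% to 61.3%) and 67.8% in replicate 1 (66.7% to 68.9%). The intervals, which cover counting error only, did not overlap at any of the 3 loci.

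**Figure D4:**
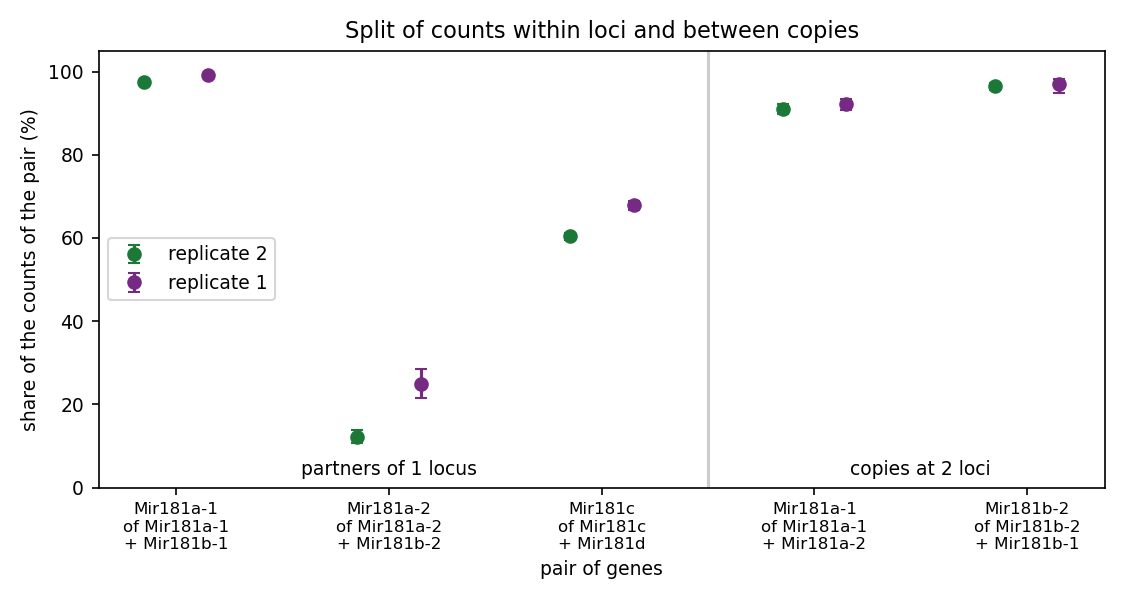
Share of the first gene in the counts of a pair, in percent, in replicate 2 (green) and replicate 1 (purple), with exact 95% binomial intervals. Among copies at 2 loci (right) Mir181a-1 holds 91.0% in replicate 2 and 92.2% in replicate 1, while among partners of 1 locus (left) Mir181a-2 holds 12.2% in replicate 2 and 24.9% in replicate 1.

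In log2 terms, the ratio of the a or c gene to its partner was lower in replicate 2 by 1.68 on chromosome 1, 1.26 on chromosome 2 and 0.47 on chromosome 8. For the copies the ratio moved by 0.22 between Mir181a-1 and Mir181a-2 and by 0.20 between Mir181b-2 and Mir181b-1. The movements of the chromosome 1 pair and of the Mir181b copies both rest on the 14 counts of Mir181b-1 in replicate 1. Over all 114 pairs of detected neighbours within 10 kb on 1 strand, the median movement was 0.23. The chromosome 1 pair moved most of the 114, the chromosome 2 pair took place 3 and the chromosome 8 pair place 21. Place 2 went to Mir144 and Mir451a, the red cell microRNAs. This ranking was chosen after the counts were seen, includes counting error and carries no test.

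Gene by gene, the libraries were compared with a two-sided exact binomial test over all 711 genes with a count. It compares 2 libraries and no conditions, and its p-values cover counting error alone. An adjusted p under 0.05 was reached by 4 of the 6 members, 3 higher and 1 lower in replicate 2, against 20.1% of all genes tested, of which 8.58% were higher and 11.5% lower. Since the test calls small differences in genes with many counts, the share called among the 367 detected genes was larger, at 138 genes. The median absolute log2 difference was 0.41 over the 6 members and 0.17 over the detected genes.

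The b and d genes were the members higher in replicate 2. Mir181b-2 was 2.23 times as high in replicate 2, a log2 difference of 1.16 (95% counting interval 1.01 to 1.31, adjusted p = 1.04e-56 by the exact test, Benjamini-Hochberg). Of the 367 detected genes, 10 including Mir181b-2 differed by as much in either direction. Its copy Mir181b-1 was higher by 1.36 (0.50 to 2.31, adjusted p = 0.00628, exact test) on 59 counts in replicate 2 and 14 in replicate 1. Mir181d, which shares a locus with neither but whose 5p form is 1 substitution and 1 end base from miR-181b-5p, was higher by 0.50 (0.42 to 0.57, adjusted p = 1.37e-41, exact test). As many as 68 detected genes differed by at least as much as Mir181d.

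The a and c genes did not move that way. Mir181a-1 was lower in replicate 2 by a log2 difference of -0.32 (95% counting interval -0.41 to -0.23, adjusted p = 8.02e-11, exact binomial test). Mir181a-2 gave -0.10 (-0.41 to 0.21, adjusted p = 0.741, exact test) and Mir181c gave 0.03 (-0.02 to 0.08, adjusted p = 0.508, exact test). The intervals of Mir181a-2 and Mir181c include 0, and that of Mir181a-2 is the wider.

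Summed by 5p sequence, a grouping made after the counts were seen, the b and d genes held 1584 CPM in replicate 2 and 1018 CPM in replicate 1. The a and c genes held 2401 CPM in replicate 2 and 2498 CPM in replicate 1. The b and d genes thus made up 39.7% of the family's counts in replicate 2 and 29.0% in replicate 1. Most of the b and d counts are those of Mir181d, and no p is given for this grouping. It rests on the 5p arm, while the arms behind the counts cannot be told apart. On the 3p arm, miR-181b-1-3p and miR-181b-2-3p each differ from miR-181d-3p by 6 substitutions beside gaps. Their seed there is UCACUGA, while that of miR-181d-3p is CCACCGG. A link of the library difference to sequence was not tested.

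**Figure D5:**
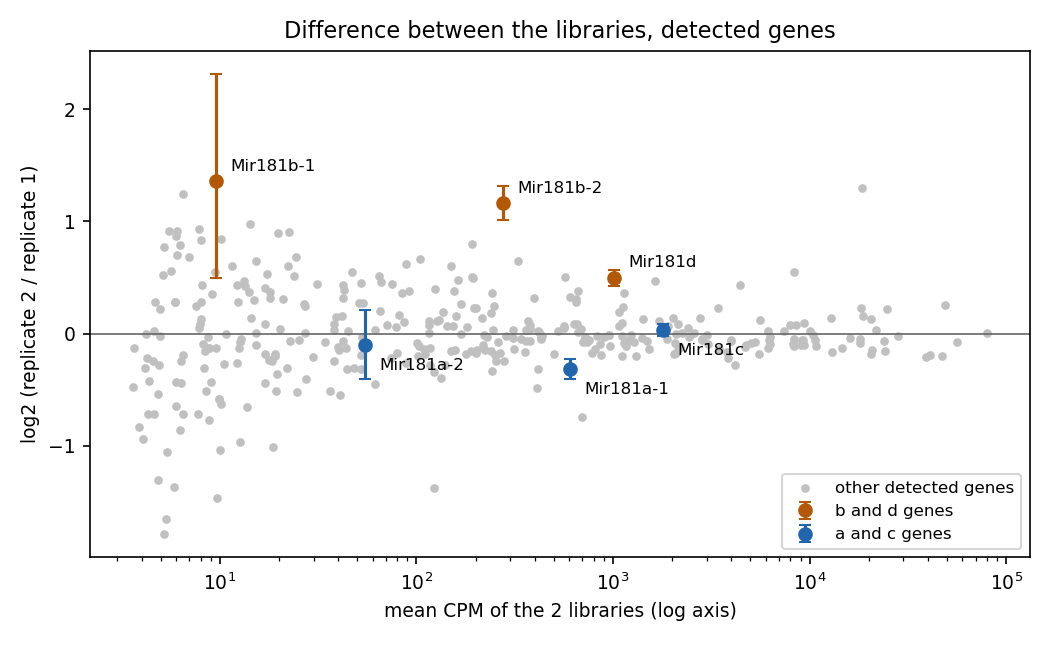
Log2 ratio of replicate 2 over replicate 1 against mean CPM (log axis) for the 367 detected genes, with 95% counting intervals on the members. The b and d genes (orange) lie at 1.36, 1.16 and 0.50, and the a and c genes (blue) at -0.32, -0.10 and 0.03.

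Marker lists of liver and other cells were set beside these differences, and their part in them was not tested. The hepatocyte list, led by Mir122, summed to 85378 CPM in replicate 2 against 84568 CPM in replicate 1, with its 4 genes detected. The endothelial list of 3 genes summed to 55232 CPM in replicate 2 against 58209 CPM in replicate 1. The mesenchymal list summed to 19932 CPM in replicate 2 against 20750 CPM in replicate 1, and 3 of its 4 genes were detected, with Mir145b at 0. Mir143 was called lower in replicate 2 at -0.08 in log2, and Mir214 was called higher at 0.14. The erythroid list of 3 genes stood at 33035 CPM in replicate 2 and 17989 CPM in replicate 1, but the 3 genes did not move together. Mir451a was higher in replicate 2 by 1.29 in log2, while Mir144 was called lower at -0.13 (adjusted p = 8.05e-17, exact test) and Mir486 gave -0.02, so the median of the list was -0.02. The leukocyte and lymphoid list, with 6 of 7 genes found by name, stood at 12280 CPM in replicate 2 and 11568 CPM in replicate 1, with Mir223 in front. Its Mir146a was not found under that name. A gene named Mir146 was detected at a mean of 222 CPM, and its counts are not in these sums. The progenitor list of 5 genes stood at 33210 CPM in replicate 2 and 36179 CPM in replicate 1. Its genes moved both ways: Mir99a, Mir10a and Mir196b were called lower in replicate 2, and Mir125a was called higher at 0.37 in log2. Within the leukocyte and lymphoid list, Mir342 and Mir155, a microRNA of activated lymphocytes, were higher in replicate 2 by 0.46 and 0.48 in log2 (adjusted p = 1.12e-58 and 1.42e-06, exact binomial test). Mir223, a myeloid microRNA and the sole gene of the myeloid list, gave 0.02, and Mir150, of mature lymphocytes, gave -0.40 (adjusted p = 0.215, exact test) on 102 counts in replicate 2 and 82 in replicate 1. The neural list, with 5 of 6 genes found by name, had 155 CPM in replicate 2 and 196 CPM in replicate 1. Most of it was Mir128-1, called lower in replicate 2 at -0.40 in log2 (adjusted p = 0.000464, exact test). Mir128-2 gave -0.24, and Mir9-3 gave 0.60 on 20 counts in replicate 2 and 8 in replicate 1, neither called. Mir9-2 and Mir124a-1 were at 0. The skeletal muscle list, with 4 of 5 genes found by name, had 522 CPM in replicate 2 and 872 CPM in replicate 1. Nearly all of it was Mir206, called lower in replicate 2 at -0.74 in log2, and both Mir133a genes were at 0. Mir9-2, Mir124a-1 and the Mir133a genes have other copies by name. How reads shared between copies were treated is not given, so these counts of 0 do not show absence. In bulk tissue, fewer cells of a type and less RNA in each cell cannot be told apart.

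The genes closest in level to each member over the 2 libraries, by distance in log2(CPM + 1), were all from outside the family. The closest to Mir181c was Mir375, at 1779 CPM in replicate 2 and 1650 CPM in replicate 1, and the next was Mir300. Mir125a and Mir16-2 were closest to Mir181d, Mir669o and Mir329 to Mir181a-1, and Mir30c-2 and Mir294 to Mir181a-2. Mir181b-2 had the least close neighbours, Mir493 and Mir182, at distances of 0.58 and 0.59, against 0.08 for the closest to Mir181a-2. Mir6540 and Mir215 were closest to Mir181b-1.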

How the data were processed

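Raw read counts for each gene were deposited by the authors, made on mm10 with GENCODE M4, per the labels and file lists. Neither aligner nor counting program is given in the sources used here. Counts are listed for the strand of the gene, the opposite strand and both. The first was used, and none of the 6 genes had a count on the opposite strand. Rows for unmapped reads, reads mapping to several places and reads in no gene stayed out of totals and tests. These were 24.2%, 32.0% and 5.64% of 12554684 reads in replicate 2 and 19.6%, 36.7% and 5.72% of 7671547 reads in replicate 1.

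Names and coordinates came from GENCODE M21 (same build), which named 1894 of 1973 genes. Differences between the libraries were tested with scipy 1.17.1 (Python 3.11.15) by an exact binomial test against the library totals, Benjamini-Hochberg adjusted over all genes with a count. The test was first tried on simulated Poisson counts. These hold counting error only, so that trial did not cover variation between biosamples. edgeR 4.0.16 and DESeq2 1.42.0 (R 4.3.3) gave alternative library sizes. The design lacks groups, so no quasi-likelihood test was run. Members, lists and rules were chosen with earlier results of these data known. Named genes are the 6 members, the 2 closest in level to each, the leading genes of the marker lists and the 6 copy families with most counts. Nothing in the labels says whether the embryos of the 2 biosamples shared litters. Intervals cover counting error only.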

Additional observations from a re-analysis of the deposited data

How the results depend on the processing

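No paired analysis was possible because both libraries belong to 1 group. The 4 members that differed between the libraries kept their direction and their call with counts from both strands, TMM library sizes, DESeq2 size factors and only genes with at least 10 counts in each library, and the genes called were 153 of 729 with both strands, 135 of 711 with TMM, 136 of 711 with DESeq2 and 150 of 367 with the count limit, against 143 of 711. Directions between loci held in each library alone. With counts from both strands the total grew, and Mir181a-2 stood at 49.1 CPM, Mir181c at 1606 CPM, the chromosome 8 locus at 2515 CPM and the family at 0.336%. Relative to all reads times 1000000, the larger base gave 611 for Mir181c, 346 for Mir181d, 205 for Mir181a-1, 94.3 for Mir181b-2, 18.7 for Mir181a-2 and 3.26 for Mir181b-1. With at least 1 count in each library, 8 genes with every arm shared were detected; with at least 100 counts, 3 of these and 21 with 1 of 2 arms shared. The log2 change of b and d genes over a and c genes, 0.69, was 1.22 without Mir181d and 1.47 without Mir181c and Mir181d, both chosen after seeing the data. Depth limits Mir181b-1 most, at 14 counts in replicate 1.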

Other observations

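Counts of the 2 highest copies in each library were present in 16 other copy families. The less abundant of the 2 stood higher in replicate 2 in 10 families and lower in 6. Of these copies, 3 of the 10 and 0 of the 6 passed the exact binomial test. Over all 711 genes tested, 8.58% were called higher and 11.5% lower. These few calls, some on low counts, were not taken as a trend. The log2 difference of the less abundant copy ran from -1.52 for Mir199a-1, on 4 counts in replicate 2 and 7 in replicate 1, to 1.87 for Mir103-1. The families named next were picked after their values were seen. Mir103-1 had 30 counts in replicate 2 and 5 in replicate 1, while Mir103-2 had 443 in replicate 2 and 207 in replicate 1. Mir7-2 had 110 counts in replicate 2 and 36 in replicate 1, a log2 difference of 0.89 (adjusted p = 0.00564, exact binomial test), while Mir7-1 gave 0.24. Over these 16 families, the ratio of the copies moved by a median of 0.30 in log2, against 0.22 and 0.20 for the Mir181a and Mir181b copies.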
